A study of Mus musculus with 12 samples.

Results

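The transcripts of 9 mouse genes that hold back cell death were followed through senescence in fibroblasts with and without the clock gene Bmal1. They are the anti-apoptotic BCL-2 family genes Bcl2, Bcl2l1, Bcl2l2, Mcl1 and Bcl2a1b, the inhibitor of apoptosis (IAP) genes Birc2, Birc3 and Xiap, and Cflar. The genes were listed by name, with no threshold on their values but with earlier results of these data known. All 9 were found among the 49315 gene identifiers of the count tables and among the 17416 genes with enough counts to be tested. Primary mouse adult fibroblasts (MAFs) had been grown from ears of adult female mice, either wild-type C57BL/6 (WT) or lacking Bmal1 in the whole body (KO). Senescence had been induced with 20 Gy of X-rays, and control cells were given a sham exposure. According to the paper, irradiated cells were then cultured for further weeks, so the groups may differ in time in culture as well. Every culture, control or senescent, was kept in DMEM with 10% serum at 3% oxygen and was exposed to 100 nM dexamethasone, a glucocorticoid that resets the clock, for 2 h before collection at 12 h. Each of the 4 groups, control and senescent cells of either genotype, held 3 RNA-seq libraries. Nothing in the labels says that these came from separate cultures or animals, so the p-values measure the spread between these libraries, which may be technical.

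Anti-apoptotic BCL-2 proteins sit on the outer mitochondrial membrane and bind the pore-forming effectors BAX and BAK as well as the BH3-only proteins that switch the effectors on. IAP proteins act further downstream: XIAP binds and blocks caspases directly, while the ubiquitin ligases cIAP1 (Birc2) and cIAP2 (Birc3) act mainly in tumour necrosis factor receptor complexes and restrain non-canonical NF-kB signalling. Cflar encodes c-FLIP, which resembles caspase-8 and limits its activation at death receptors. Senescent cells are known for resistance to apoptosis, and inhibitors of BCL-2, BCL-XL and BCL-W are used experimentally as senolytics, agents that kill senescent cells.

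Library totals ranged from 23923030 to 31736083 counts, and replicate libraries differed from each other by more than sampling noise in every group. Levels are given in CPM, counts brought to a common library size with TMM (trimmed mean of M-values) factors, and 3 counts, taken as the detection floor, equalled 0.101 to 0.135 CPM. Intervals and floors cover counting error and the spread of these libraries only. The targeted gene, listed as Arntl, averaged 31.5 CPM in control and 36.1 CPM in senescent WT cells, against 13.2 and 26.6 CPM in KO cells. The libraries of the genotypes did not overlap in either state, with KO at 0.417 times the WT level in control and 0.736 times in senescent cells, and Arntl rose by 1.02 with senescence in KO cells (adjusted p 1.96e-09). Its RNA was thus lower but present in the libraries labelled KO. Counts over the whole gene cannot show whether the deleted part is transcribed, so they do not settle the label. The paper reports that its KO cells had lost the Bmal1 transcript and that other clock genes lacked rhythm in them. All 8 fibroblast markers examined exceeded 1 CPM in every group. Their sum was 19900 to 20700 CPM in WT control and 9570 to 9950 CPM in WT senescent libraries. In KO libraries it was 24800 to 26200 CPM without and 11500 to 11900 CPM with senescence. At an edgeR adjusted p under 0.05, 4 rose and 4 fell in WT cells (29.2% and 27% of all genes tested). In KO cells 2 rose and 5 fell (28.5% and 28.6%). Markers of macrophages summed to at most 16.7 CPM per library and those of lymphocytes and mast cells to at most 13.5 CPM.

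With senescence, 5 of the 9 genes rose and 1 fell in WT cells, and 5 rose and 3 fell in KO cells, by edgeR's quasi-likelihood (QL) test at an adjusted p under 0.05. Over all genes tested, the same threshold was passed upward by 29.2% and downward by 27% in WT cells and by 28.5% and 28.6% in KO cells, so a response to senescence as such was common. Bcl2, Bcl2l1, Bcl2l2, Birc3 and Cflar rose in both genotypes and Xiap fell in both, whereas Birc2 and Bcl2a1b fell in KO cells. Mcl1 passed in neither with these settings. The median log2 fold change of the 9 genes was 0.33 in WT and 0.28 in KO cells, beside 0.02 and −0.00 over all genes tested. When a log2 fold change over 1 in size was required as well, as the study's methods do, Bcl2 was called higher in WT cells (11.6% of all genes were, and 5.9% were called lower) and Bcl2 and Cflar in KO cells (11.2%), and Bcl2a1b was called lower in KO cells (7.58%). Bcl2a1b, at 2 to 20 counts per library, had entered the test only through groups in which it was higher, so its place in these counts and those below is no support for them. In bulk RNA, fewer cells of a type and less RNA per cell cannot be told apart, which holds for every fall given here.

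Whether the response differed between genotypes was tested by the interaction, that is, the log2 change of KO cells with senescence minus that of WT cells. It passed for 4 genes. Cflar and Bcl2l2 responded more strongly in KO cells and Birc2 and Bcl2a1b more negatively, where 9.24% of all genes passed upward and 11.7% downward, 20.9% in all. Past the fold threshold lay only the sparse Bcl2a1b (background 1.15% higher and 2.51% lower). Compared directly, KO senescent cells held more Cflar, Bcl2l2 and Mcl1 and less Bcl2a1b than WT senescent cells (background 11.9% higher and 11.8% lower), of which only Bcl2a1b exceeded the fold threshold (background 1.29% higher and 2.19% lower). No member passed between KO and WT control cells by edgeR, DESeq2 or limma-voom (edgeR background 8.07% higher and 4.96% lower at adjusted p). An unadjusted edgeR p under 0.05 was reached by 3 members. The share of all genes at that unadjusted threshold was not taken, so this count has no background to judge it by. These comparisons share libraries and are not independent of each other, and each genotype had its own count table, so handling and genotype cannot be told apart between KO and WT. A shift common to a genotype cancels in the interaction.

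**Figure D1:**
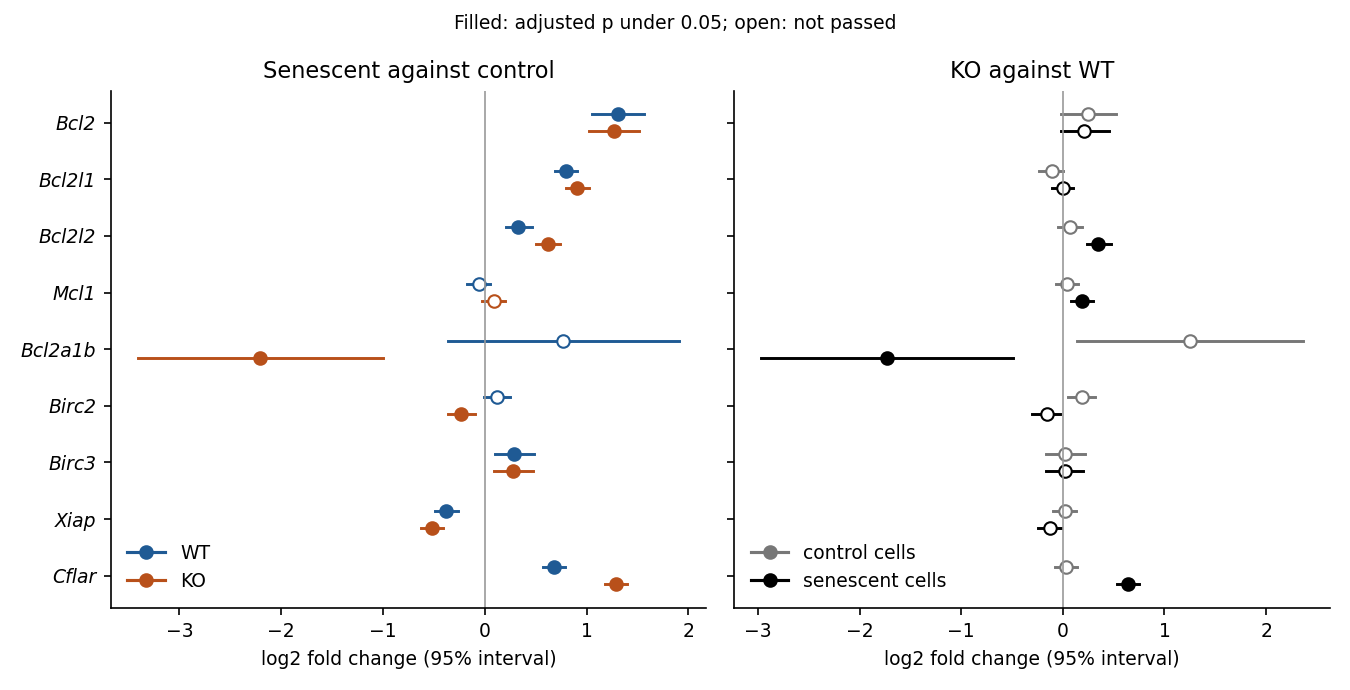
Log2 fold changes of the 9 genes (points) with 95% intervals (bars) for senescent against control cells of each genotype (left) and for KO against WT cells of each state (right), where filled points passed an adjusted p of 0.05. Cflar was shifted to the right in KO cells (1.29 against 0.68), Birc2 lay on opposite sides of 0, and Bcl2a1b had by far the widest intervals.

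Levels of different genes were compared per kilobase of exon (RPKM, from CPM and the union of each gene's exons). Mcl1 stood first in every group, with mean values of 52.9 and 50.6 RPKM in WT control and senescent cells and 54.4 and 57.7 RPKM in KO cells. In WT control cells Bcl2l1 followed at 16.7 ± 0.461 RPKM (SD, n = 3), then Bcl2l2 at 14.7 ± 0.945 and Xiap at 11.5 ± 0.309. Birc2 (7.5 ± 0.413) and Cflar (7.43 ± 0.288) did not differ beyond their spread there, and neither did Bcl2l2 and Bcl2l1 in KO control cells (15.5 ± 0.173 and 15.4 ± 0.56). Birc3 stood at 4 to 4.94 RPKM over the 4 groups, Bcl2 at 0.616 to 1.76 and Bcl2a1b at 0.148 to 0.703. With senescence Cflar moved from below Xiap to above it. Cflar was at 11.9 ± 0.146 and Xiap at 8.84 ± 0.363 RPKM in WT senescent cells, and the values were 18.5 ± 1.13 and 8.07 ± 0.357 in KO senescent cells. The order depends on the length used. With the longest annotated transcript in place of the exon union, Bcl2l1 came to 51.9 RPKM in WT senescent cells, next to 50.6 for Mcl1.

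**Figure D2:**
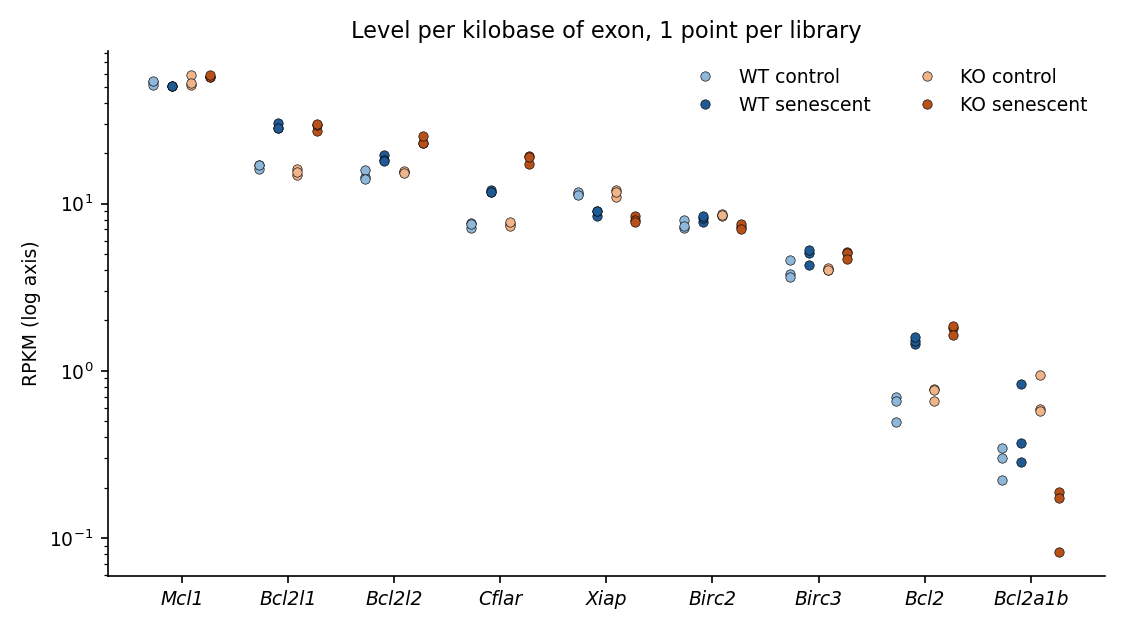
Level of each gene per kilobase of exon (RPKM, log axis), with 1 point per library and groups by colour. Mcl1 was highest and Bcl2 and Bcl2a1b lowest in all groups, and Cflar was at 7.43 and 7.57 RPKM in control cells of WT and KO and at 18.5 RPKM in KO senescent cells.

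Bcl2 (ENSMUSG00000057329, GRCm38 chromosome 1, 106538178 to 106714274, minus strand), the founding member of the family, was at 4.54, 6.39 and 6 CPM in WT control libraries and at 13.3, 13.9 and 14.7 CPM in WT senescent libraries. In KO cells the values were 6.04, 7.1 and 6.99 CPM without and 16.5, 17 and 14.9 CPM with senescence. All senescent libraries lay above all control libraries. The log2 fold change was 1.31 in WT cells (adjusted p 1.13e-08, SE 0.12) and 1.27 in KO cells (adjusted p 1.08e-08, SE 0.12). The interaction was −0.04 with a 95% interval of −0.40 to 0.32 (adjusted p 0.9), so a difference of response within that interval was not resolved. Bcl2 had the largest fold change of the 9 genes in WT cells but contributed little RNA. Its share was taken of the summed RPKM of Bcl2, Bcl2l1, Bcl2l2, Mcl1 and Bcl2a1b. This share was 0.724 ± 0.13% in WT control cells and 1.52 ± 0.0898% in WT senescent cells. In KO cells it was 0.849 ± 0.116% in the control and 1.57 ± 0.147% in the senescent state.

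Bcl2l1 (ENSMUSG00000007659, chromosome 2, 152780668 to 152831728, minus strand) encodes BCL-XL. Its level was 77.9, 74 and 77.5 CPM in control and 131, 139 and 131 CPM in senescent WT libraries. KO control libraries held 73.4, 68.3 and 70.5 CPM and KO senescent libraries 125, 135 and 138 CPM. Senescent and control libraries were again fully apart, whereas the senescent libraries of the genotypes overlapped. The fold change on the log2 scale was 0.80 in WT cells (adjusted p 4.61e-11, SE 0.05) and 0.91 in KO cells (adjusted p 5.41e-12, SE 0.05), with an interaction of 0.11 (95% interval −0.05 to 0.27, adjusted p 0.338). Between KO and WT senescent cells the log2 difference was −0.00, with an interval of −0.11 to 0.10. Counts include every exon of the gene, so the long anti-apoptotic and the short pro-apoptotic splice forms of Bcl2l1 were not separated.

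Bcl2l2 (ENSMUSG00000089682, chromosome 14, 54883377 to 54888234, plus strand), which encodes BCL-W, had 64.5, 70.5 and 62.3 CPM in control and 87.3, 81.2 and 80.4 CPM in senescent WT libraries. KO libraries held 69.2, 69.6 and 68.1 CPM in the control and 103, 103 and 113 CPM in the senescent state. Every KO senescent library was above every WT senescent library, and the control libraries of the genotypes overlapped. Bcl2l2 rose by 0.33 on the log2 scale in WT cells (adjusted p 4.38e-05, SE 0.06) and by 0.62 in KO cells (adjusted p 7.45e-09, SE 0.06). The interaction was 0.29 (SE 0.08, 95% interval 0.12 to 0.46, adjusted p 0.0159) but was lost without WT senescent replicate 2 (adjusted p 0.052) or without WT senescent replicate 3 (0.0531). The direct difference between KO and WT senescent cells, 0.35 (adjusted p 9.84e-05, SE 0.06), passed without any single library. Exons of Bcl2l2 share 594 bases with the readthrough gene model Gm20521, which had 3 to 29 counts per library where Bcl2l2 had at least 1381.

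Mcl1 (ENSMUSG00000038612, chromosome 3, 95658788 to 95663176, plus strand) encodes a short-lived protein that is controlled to a large extent through its degradation. Control libraries of WT cells held 182, 174 and 186 CPM and each senescent library 173 CPM. KO control libraries held 202, 175 and 181 CPM and KO senescent libraries 195, 195 and 201 CPM. The groups were close together, and KO control replicate 1 lay above the KO senescent libraries. The senescence log2 fold change was −0.06 in WT cells (95% interval −0.18 to 0.05, adjusted p 0.333) and 0.09 in KO cells (−0.03 to 0.20, adjusted p 0.182). The WT value was 0.11 without scaling factors, a setting that moved the median of all genes to 0.19 in WT and 0.15 in KO cells, and was −0.10 with only the groups compared, where it passed (adjusted p 0.0433). The KO value passed without scaling factors (0.24), with upper quartile factors (0.17), with a filter at a mean of 1 CPM (0.13) and without KO control replicate 1 (0.15, adjusted p 0.0226). KO senescent cells exceeded WT senescent cells by 0.19 (adjusted p 0.0131, SE 0.05), while the interaction of 0.15 did not pass (95% interval −0.01 to 0.31, adjusted p 0.182) unless KO control replicate 1 was left out (0.21, adjusted p 0.0312).

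Bcl2a1b (ENSMUSG00000089929, chromosome 9, 89199209 to 89207827, plus strand), a copy of the gene for A1, which is best known from blood cells, was close to the detection floor. The WT control libraries held 7, 6 and 4 counts and the WT senescent libraries 20, 9 and 6. The KO control libraries held 12, 14 and 18 counts and the KO senescent libraries 4, 4 and 2, the last below the floor. It was kept for testing only through the groups in which it was higher. The log2 fold change was −2.21 in KO cells (adjusted p 0.00263, SE 0.58), with libraries that did not overlap. In WT cells it was 0.77 (adjusted p 0.24, SE 0.55), and there the libraries overlapped. The interaction of −2.98 (adjusted p 0.0109, SE 0.80) was lost without WT senescent replicate 1 (−2.39, adjusted p 0.0553). The difference between KO and WT senescent cells, −1.73 (adjusted p 0.0392, SE 0.59), was lost without each of 5 of the 6 senescent libraries (adjusted p up to 0.262), all but WT senescent replicate 3. Of the 100-base windows of its transcript, 56.8% occur in Bcl2a1a, Bcl2a1d or Gm29094 as well, so its reads could be split or dropped among these copies. Bcl2a1d, the only other copy tested and named after its values were seen, fell by 1.47 in KO cells (adjusted p 0.0185), a call lost without replicate 1 or 3 of the KO control cells or replicate 3 of the KO senescent cells, and its interaction of −1.93 did not pass (adjusted p 0.0652).

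**Figure D3:**
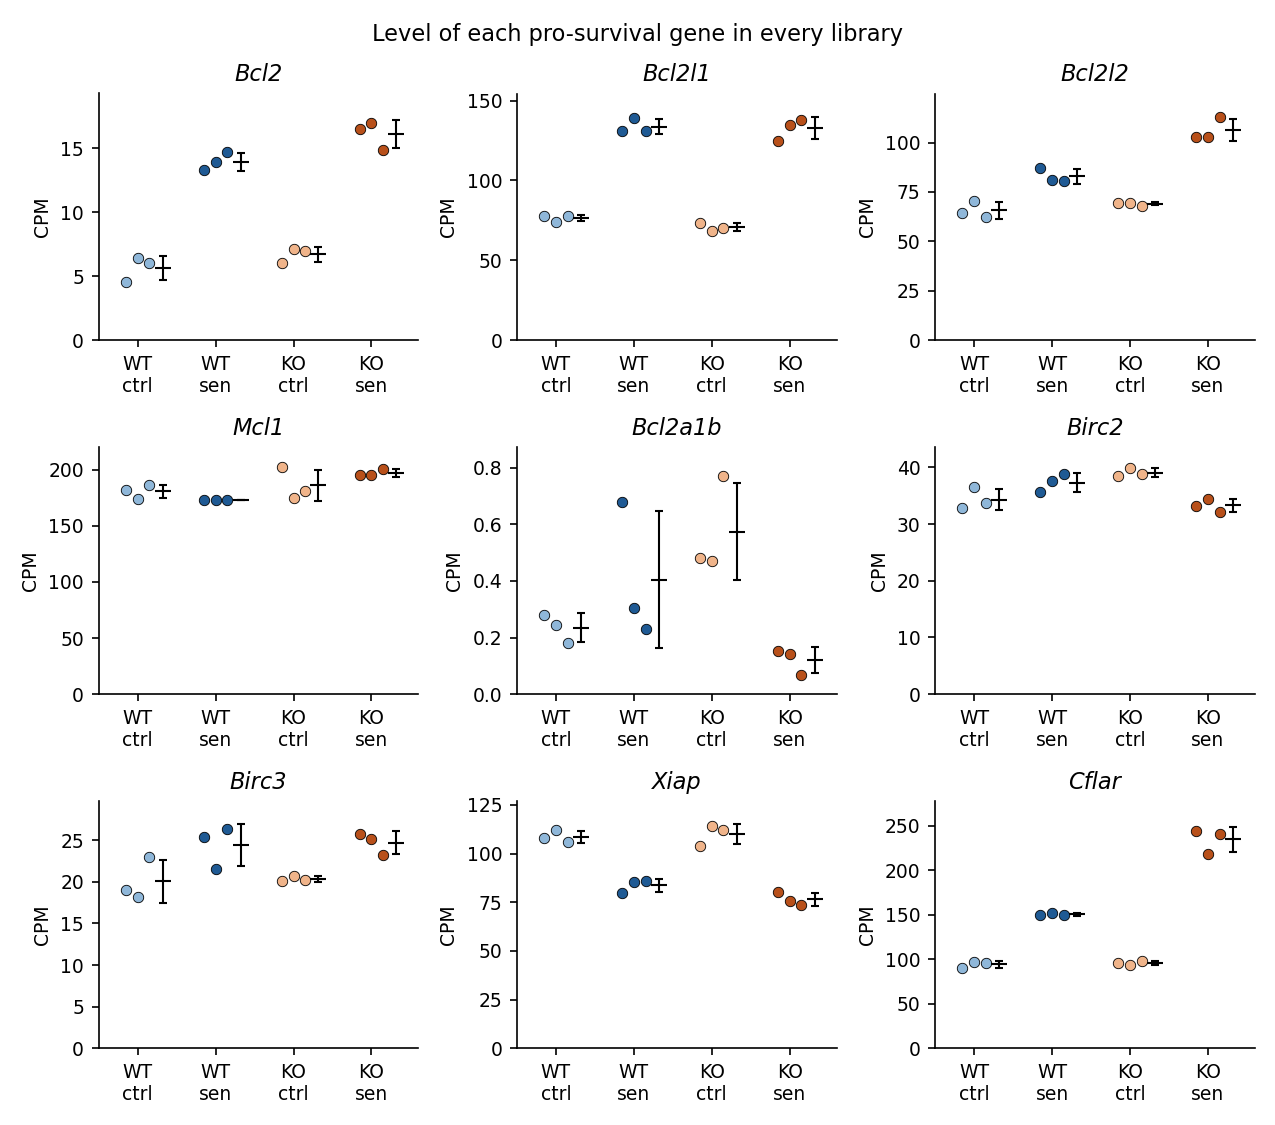
Level of the 9 genes (CPM) in every library, with 1 point per library and the mean ± SD of 3 libraries beside them. Bcl2, Bcl2l1, Bcl2l2 and Cflar stood higher in all senescent libraries, Xiap stood lower, Mcl1 barely moved, and Cflar and Bcl2l2 were highest in KO senescent libraries.

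The relative weight of the anti-apoptotic BCL-2 genes shifted with senescence. The summed RPKM of Bcl2, Bcl2l1 and Bcl2l2 amounted to 0.599, 0.641 and 0.579 times that of Mcl1 in WT control libraries and to 0.98, 0.986 and 0.95 times in WT senescent libraries. In KO cells the ratios were 0.544, 0.61 and 0.595 without and 0.916, 0.951 and 0.967 with senescence. Senescent libraries did not overlap control libraries, and the senescent libraries of the genotypes overlapped. Shares were taken of the RPKM of these 4 genes and Bcl2a1b together. That of Mcl1 went from 62.1 ± 1.22% to 50.5 ± 0.588% in WT cells and from 62.7 ± 1.45% to 51.4 ± 0.68% in KO cells. Bcl2l1 took 29 ± 0.871% of the WT and 25.8 ± 0.76% of the KO senescent total, and Bcl2l2 took 18.5 ± 0.753% and 21.1 ± 0.585%. No p is given for these sums, whose members were chosen with results known, and with longest transcript lengths the mean ratios to Mcl1 were 0.905 and 1.49 in WT and 0.859 and 1.42 in KO cells.

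Xiap (ENSMUSG00000025860, chromosome X, 42059679 to 42109656, plus strand), the direct caspase inhibitor, went the other way. Libraries of WT cells held 108, 112 and 106 CPM without and 79.8, 85.3 and 86.1 CPM with senescence. Libraries of KO cells held 104, 114 and 112 CPM and 80.1, 75.9 and 73.4 CPM. All senescent libraries were below all control libraries. Xiap fell by 0.38 on the log2 scale in WT cells (adjusted p 4.01e-06, SE 0.05) and by 0.52 in KO cells (adjusted p 3.74e-08, SE 0.05). The interaction was −0.15 (95% interval −0.31 to 0.01, adjusted p 0.186). Over the 12 libraries Xiap ran opposite to Bcl2l1, with a Pearson r of −0.96 between log2 CPM values, a description that rests on the separation of control and senescent libraries.

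Birc2 (ENSMUSG00000057367, chromosome 9, 7818227 to 7837064, minus strand) and Birc3 (ENSMUSG00000032000, chromosome 9, 7848699 to 7873186, minus strand) are neighbours that encode the related ligases cIAP1 and cIAP2. In WT cells Birc2 had 32.8, 36.5 and 33.7 CPM in control and 35.6, 37.6 and 38.8 CPM in senescent libraries, which overlapped. In KO cells it had 38.5, 39.9 and 38.9 CPM and 33.2, 34.5 and 32.2 CPM, which did not. Birc2 was thus highest in KO control cells and lowest, by a small margin, in KO senescent cells. The log2 fold change was 0.12 in WT cells (95% interval −0.01 to 0.25, adjusted p 0.113) and −0.23 in KO cells (adjusted p 0.00378, SE 0.06). The fall in KO cells was not kept with upper quartile factors (−0.15, adjusted p 0.052) or without scaling factors (−0.08, adjusted p 0.299), and the WT value passed with both (0.21 and 0.29) and with a filter at a mean of 1 CPM (0.15). The interaction, in which a common scaling shift cancels, was −0.35 (SE 0.09, 95% interval −0.54 to −0.16, adjusted p 0.008), and it passed without any single library. Between genotypes the log2 difference of KO from WT was 0.19 in control cells (adjusted p 0.0583) and −0.16 in senescent cells (adjusted p 0.0637), and in both states the libraries were apart.

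Birc3 had 19, 18.2 and 23 CPM in control and 25.4, 21.6 and 26.4 CPM in senescent WT libraries, and these overlapped. In KO cells 20.1, 20.7 and 20.2 CPM stood against 25.8, 25.2 and 23.2 CPM, with no overlap. Birc3 rose by 0.29 in WT cells (adjusted p 0.0113, SE 0.09) and by 0.28 in KO cells (adjusted p 0.0124, SE 0.09). The WT rise was lost without WT control replicate 1 (adjusted p 0.0608), WT control replicate 2 (0.0693) or WT senescent replicate 3 (0.0691). The interaction was −0.01 with an interval of −0.28 to 0.26 (adjusted p 0.978). The RPKM ratio of Birc3 to Birc2 was 0.536 ± 0.0837 in WT control, 0.599 ± 0.0662 in WT senescent, 0.476 ± 0.00271 in KO control and 0.679 ± 0.0272 in KO senescent cells, so that the separation of control from senescent cells exceeded the spread in KO cells and not in WT cells.

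Cflar (ENSMUSG00000026031, chromosome 1, 58711508 to 58758884, plus strand) showed the clearest difference between genotypes. WT libraries held 90, 96.8 and 95.7 CPM in the control and 150, 152 and 149 CPM in the senescent state. KO libraries held 96.2, 93.7 and 97.9 CPM and 244, 218 and 241 CPM. The control libraries of the genotypes overlapped, the WT senescent libraries were above them, and the KO senescent libraries were above those. The log2 fold change was 0.68 in WT cells (adjusted p 6.6e-10, SE 0.05) and 1.29 in KO cells (adjusted p 1.8e-14, SE 0.05). The interaction was 0.61 (SE 0.07, 95% interval 0.46 to 0.77, adjusted p 1.68e-05), and KO exceeded WT by 0.64 in senescent cells (adjusted p 2.34e-08, SE 0.05) and by 0.03 in control cells (95% interval −0.08 to 0.14, adjusted p 0.813). Under all other settings and without each library in turn, the interaction was 0.59 to 0.66 and passed. The long and short forms of c-FLIP arise by splicing and were not separated by these counts, and 3.99% of the 100-base windows of Cflar transcripts occur in other genes.

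BMAL1 acts through E-boxes in DNA, so promoter sequences of the 9 genes were searched. RefSeq (GRCm38.p6) gave 14 windows for them, from 250 bases before to 50 bases after each transcript start. The canonical E-box CACGTG was in 0 of the 14 windows and in 7.15% of all 32851 mouse windows of the same length, both strands read. The AP-1 motif TGACTCA was also in 0 of them (5.2% of all), the cyclic AMP response element TGACGTCA was in 1, of Birc2 (1.79% of all), and the kappaB motif was in 2, of Bcl2l1 and Xiap (8.46% of all). No match says only that these letters are not in these windows, and a match is no evidence of binding. The 250 bases before the start are shown for the 3 genes of at least 1 CPM whose response differed between genotypes, 5′ to 3′ on the gene's strand, with a motif in capitals where 1 was found. The windows are chr1:58711241-58711490 (plus strand) for Cflar, chr14:54883175-54883424 (plus strand) for Bcl2l2 and chr9:7837058-7837307 (minus strand) for the upstream of 2 Birc2 starts, where the capitals mark the cyclic AMP response element, which begins 35 bases before the start.
Cflar: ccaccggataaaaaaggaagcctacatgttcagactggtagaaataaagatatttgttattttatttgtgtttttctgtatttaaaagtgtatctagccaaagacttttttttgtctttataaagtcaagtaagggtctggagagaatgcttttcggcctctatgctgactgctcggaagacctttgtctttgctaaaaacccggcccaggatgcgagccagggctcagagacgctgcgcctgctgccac
Bcl2l2: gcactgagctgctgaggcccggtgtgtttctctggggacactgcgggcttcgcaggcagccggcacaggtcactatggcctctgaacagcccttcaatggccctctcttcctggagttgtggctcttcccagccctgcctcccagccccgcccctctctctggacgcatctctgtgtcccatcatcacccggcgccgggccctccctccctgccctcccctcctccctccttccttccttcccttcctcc
Birc2: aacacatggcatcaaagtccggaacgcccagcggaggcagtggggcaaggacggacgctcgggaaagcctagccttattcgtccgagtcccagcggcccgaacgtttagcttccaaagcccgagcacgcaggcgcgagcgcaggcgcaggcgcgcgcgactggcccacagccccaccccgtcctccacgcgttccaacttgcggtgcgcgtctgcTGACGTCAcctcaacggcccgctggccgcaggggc

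Cells of another type were looked for beside these differences. Markers of chondrocytes, the cells of cartilage, which the ear contains, summed to 7110 to 8750 CPM in WT control, 2020 to 2340 CPM in WT senescent, 4750 to 6420 CPM in KO control and 660 to 770 CPM in KO senescent libraries. All 6 had less RNA in senescent KO than in senescent WT cells and a negative interaction, at an adjusted p under 0.05 (background 11.8% and 11.7%). The part of these cells in the differences of Cflar, Bcl2l2, Birc2 and Bcl2a1b was not tested. Markers of macrophages, a cell type in which A1 is known, summed to 9.19 to 16.7 CPM over all groups and to 10.3 to 15.6 CPM in KO senescent libraries, within the range of the others. Of 4 skeletal muscle markers, 3 rose and 1 fell in KO cells (background 28.5% and 28.6%). The interaction and the difference between KO and WT senescent cells were called higher for 2 each (background 1.15% and 1.29%). Their sum was 45.6 to 58.9 CPM in WT control, 14.2 to 15.6 in WT senescent, 23.2 to 33.8 in KO control and 16.7 to 23.9 CPM in KO senescent libraries, mostly from Acta1, and Myh1 had the largest interaction (6.39) at group means of at most 1.53 CPM. Of 4 keratinocyte markers tested, 3 rose in WT cells (background 29.2%), and 3 rose and 1 fell in KO cells (28.5% and 28.6%). Their sums were 10.2 to 19.7 CPM over all libraries. Endothelial and melanocyte markers summed to at most 7.86 and 4.78 CPM. The part of these cells in the members' values was not tested either.

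The genes most alike to each member were sought by Pearson correlation of log2 CPM over the 12 libraries, among genes of at least 5 CPM. Those of Cflar were Nrcam (r 0.996) and Rbpj (0.989), and those of Bcl2l2 were Ubald1 (0.990) and Uchl1 (0.984). Cflar and Bcl2l2 were alike at 0.98. The most alike to Birc2 were Nfix (0.954) and Rab9 (0.940), to Bcl2 Smpdl3a and Rabep1 (both 0.990), to Bcl2l1 Apobec1 (0.994) and Cryab (0.993), and to Xiap Fbxo48 (0.991) and Kdm5c (0.990). Mcl1 (Zyx 0.955), Birc3 (Lrrc14 0.929) and Bcl2a1b (Ntrk3 0.903) had lower best values. All of these libraries share the same 4 groups, so the values describe likeness only.

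The opponents of these proteins were read from lists of their pathways. Of 11 genes of BCL-2 effectors and BH3-only proteins, 9 were tested, of which 4 rose and 2 fell in WT cells and 4 rose and 4 fell in KO cells. Of all genes tested, 29.2% rose and 27% fell in WT cells, and 28.5% rose and 28.6% fell in KO cells. Pmaip1, which encodes NOXA, a BH3-only protein that binds MCL-1, rose with senescence, from 2.81 ± 0.219 to 26.7 ± 0.799 CPM without the loss of Bmal1 and from 4.54 ± 0.81 to 41.8 ± 1.89 CPM with it (log2 fold changes of 3.25 and 3.20, adjusted p 1.47e-15 and 3.96e-16). It was higher in KO than in WT cells both without senescence (0.69, adjusted p 0.00106) and with it (0.65, adjusted p 9.27e-06). Bbc3, the gene of PUMA, rose by 0.88 and 0.47. The effector Bok had log2 fold changes of −1.72 and −1.42 in WT and KO cells, both passing, and those of Bak1 were −0.82 and −0.51. Bcl2l11, the gene of BIM, averaged 7.03 and 8.19 CPM in control and senescent WT cells and 11.1 and 7.94 CPM in KO cells, where it fell by 0.48, and had an interaction of −0.70 (adjusted p 0.00377). Bmf fell by 1.92 in KO cells, with an interaction of −1.38 (adjusted p 0.018).

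Set against their partners within each library, the RPKM of Pmaip1 was 0.0199, 0.0184 and 0.02 times that of Mcl1 in WT control and 0.199, 0.193 and 0.187 times in WT senescent libraries. In KO cells the ratio was 0.0339, 0.0291 and 0.0283 without and 0.258, 0.266 and 0.272 with senescence, and all 4 groups were apart. The sum of the anti-apoptotic genes Bcl2, Bcl2l1, Bcl2l2, Mcl1 and the sparse Bcl2a1b was then set over the effectors Bax, Bak1 and Bok. This ratio was 0.882 ± 0.0504 in WT control and 1 ± 0.0318 in WT senescent cells, and 0.847 ± 0.0545 and 0.951 ± 0.047 in KO cells. Over the BH3-only genes the same sum went from 3.77 ± 0.125 to 2.77 ± 0.0893 in WT cells and from 3.26 ± 0.139 to 2.71 ± 0.0767 in KO cells. With exon union lengths, the senescent values were above the control values for the effectors and below them for the BH3-only genes. With longest transcript lengths, the mean ratios over the effectors were 0.83 and 0.94 in WT and 0.78 and 0.88 in KO cells. Those over the BH3-only genes were 3.02 and 2.61 in WT cells but 2.62 and 2.61 in KO cells. The fall in KO cells thus depends on the length used. Bax itself, named for its pairing with a member, rose by 0.61 in WT cells and by 0.67 in KO cells (adjusted p 5.95e-06 and 1.79e-06), and Bcl2l1 over Bax was 0.33 ± 0.0247, 0.376 ± 0.0211, 0.273 ± 0.0284 and 0.321 ± 0.0112 in the order WT control and senescent, KO control and senescent.

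**Figure D4:**
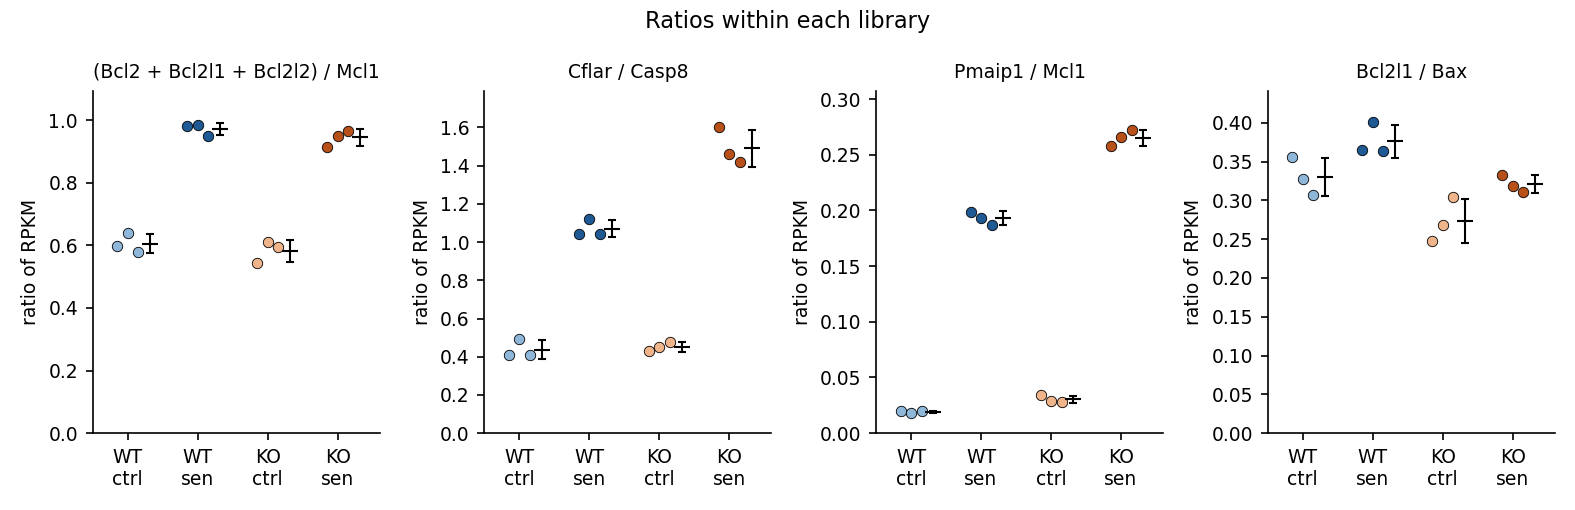
Ratios of RPKM within each library, with 1 point per library and the mean ± SD of 3 libraries. In every panel the senescent libraries lay above the control libraries of their genotype, and Cflar over Casp8 was highest in KO senescent libraries at 1.42 to 1.6.

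Of the 6 caspase and apoptosome genes reported, 5 fell in WT cells, 6 fell in KO cells and 0 rose. Over all genes tested, 27% fell and 29.2% rose in WT cells, and 28.6% fell and 28.5% rose in KO cells. The log2 fold changes in WT and KO cells were −1.07 and −1.26 for the initiator Casp2 and −0.32 and −0.79 for Casp9, the initiator that the apoptosome activates, whose WT call was lost with upper quartile factors (−0.24), without scaling factors (−0.15) and without WT senescent replicate 1 (−0.24). Those of Casp6 were −0.06, which did not pass (adjusted p 0.55), and −0.44 (adjusted p 0.000123). Casp8, the caspase that c-FLIP holds in check, fell from 49.5 ± 4.29 to 32.2 ± 0.945 CPM among WT and from 48.5 ± 2.43 to 35.9 ± 2.59 CPM among KO libraries (adjusted p 2.33e-07 and 2.26e-05). Cflar over Casp8 in RPKM was 0.407, 0.494 and 0.411 in WT control and 1.04, 1.12 and 1.04 in WT senescent libraries. It was 0.428, 0.451 and 0.477 in KO control and 1.6, 1.46 and 1.42 in KO senescent libraries, so that the KO senescent libraries stood above all others. Cycs, cytochrome c, fell by 0.68 in WT cells and had a smaller KO change of −0.16 (adjusted p 0.0184), a call lost with upper quartile factors (−0.08), without scaling factors (−0.01), with a filter at a mean of 1 CPM (−0.11) and without replicate 1 of the KO control cells or replicate 1 or 2 of the KO senescent cells. Its interaction was 0.52 (adjusted p 0.000135).

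Among the antagonists of IAPs, Xaf1, an interferon-induced binder of XIAP, rose by 3.25 and 2.37 with senescence in WT and KO cells, from 1.32 ± 0.148 to 12.5 ± 2.47 and from 2.34 ± 0.211 to 12.1 ± 5.32 CPM (adjusted p 6.28e-07 and 5.8e-06). Of the 4 antagonists, Xaf1 alone rose in both (background 29.2% and 28.5%). In WT cells 3 fell (background 27%) and in KO cells 1, Diablo (background 28.6%). Sept4 fell by 1.14 in WT cells (edgeR adjusted p 0.00148), from 3.39 ± 0.997 to 1.53 ± 0.417 CPM. This call was kept in all 10 other settings and without each of the 12 libraries. The KO change of Sept4 did not pass (−0.64, edgeR adjusted p 0.0816), and KO control cells held less of it than WT control cells (−1.15, edgeR adjusted p 0.00852). The WT falls of Diablo (−0.19) and Htra2 (−0.21) were each lost in 3 other settings. They came to −0.02 and −0.04 without scaling factors, and were also lost without 4 and 3 of the 12 libraries in turn. Without scaling factors the KO fall of Diablo was lost as well (−0.10). Of 7 other IAP genes, 3 were tested. Birc5, which encodes survivin, a protein of dividing cells, had log2 fold changes of −3.50 and −3.92 (72.6 ± 10.2 to 6.43 ± 0.182 CPM and 67 ± 6.03 to 4.44 ± 0.894 CPM). Birc6, which encodes a very large ubiquitin ligase, changed by −0.59 and −0.51. The only one to rise was Naip2, an inflammasome sensor outside the rule for naming, by 1.42 and 3.42 from means of 0.467 and 0.133 CPM, which was chosen after its values were seen.

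Genes of the pathways in which cIAPs and c-FLIP act moved unevenly. Of 10 death receptor genes, 2 rose and 6 fell in WT cells and 2 rose and 5 fell in KO cells. For this and the next lists, the background was 29.2% up and 27% down in WT cells and 28.5% and 28.6% in KO cells. The KO fall of Mlkl, the effector of necroptosis (−0.22, adjusted p 0.0466), was lost in 7 of 10 other settings, DESeq2 and limma-voom among them, and without 7 of 12 libraries in turn. The receptor gene Fas rose from 11.8 ± 0.95 to 35.1 ± 1.49 CPM among WT and from 12.1 ± 1.25 to 26.9 ± 5.38 CPM among KO libraries, and Ripk3, a kinase of necroptosis, changed by −0.87 and −0.75. Of 7 genes of cIAP partners and non-canonical NF-kB signalling, 1 rose and 3 fell in WT cells and 2 rose and 0 fell in KO cells, where the single rise common to both was that of Relb (0.42 and 0.54). The other KO rise, of Nfkb2 (0.16), was lost with no filter and without replicate 2 of the KO control or replicate 3 of the KO senescent cells. Traf3, an adaptor through which cIAPs reach their substrate NIK, fell by 0.33 in WT cells and had a KO value of 0.08, and its interaction was 0.40 (adjusted p 0.00201). Of these 7 genes 4 were higher in KO than in WT senescent cells (background 11.9%). Traf1, which is induced by NF-kB and binds cIAPs, was among them (0.64, adjusted p 0.00999). The Traf1 call was lost without KO senescent replicate 3 (0.44, adjusted p 0.0894). That of Traf2 (0.21) was lost without each of the 6 senescent libraries, without scaling factors and with no filter. Of 6 NF-kB feedback genes, 2 rose and 1 fell in WT cells and 4 rose and 1 fell in KO cells. Icam1 rose by 2.57 and 2.64, Tnfaip3 (A20) rose by 0.76 in KO cells, and Nfkb1 changed by −0.32 and −0.61. Of 5 genes for MCL-1 turnover, the ubiquitin ligase genes Trim17 (1.24 and 1.73) and Fbxw7 (0.50 and 0.38) rose in both genotypes. The interaction passed for 0 of 5 by edgeR, and for 20.9% of all genes. Trim17 was sparse, at group means of 0.605 to 2.47 CPM. Of its 3736 exon bases, 708 are shared with Hist3h2a on the same strand, which had 135 to 480 counts per library. The part of this overlap in the Trim17 values was not tested.

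**Figure D5:**
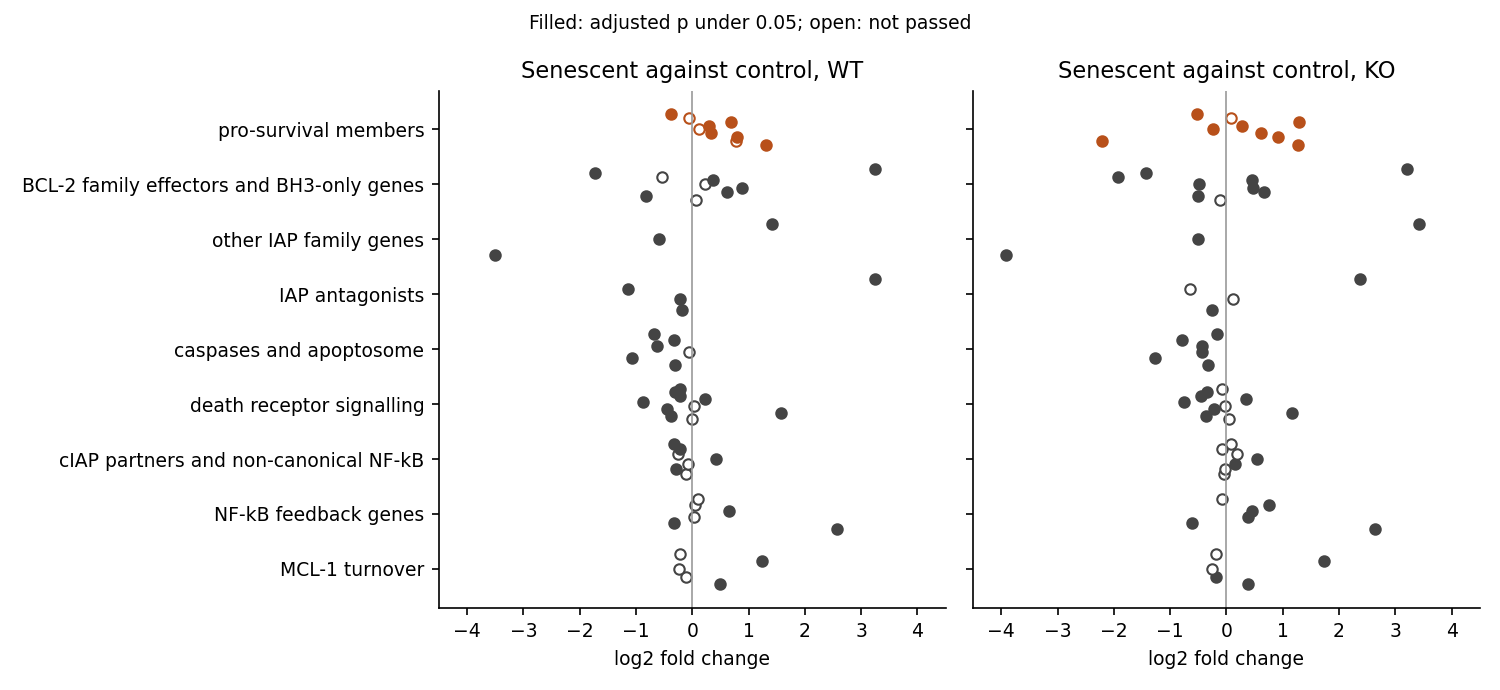
Senescence log2 fold change of each tested gene reported, by list, in WT (left) and KO cells (right), with the 9 pro-survival genes in orange and filled points for an adjusted p under 0.05. No caspase or apoptosome gene plotted lay to the right of 0 with a filled point, and the 2 points beyond 3 on the right in WT cells were Pmaip1 and Xaf1.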

How the data were processed

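RNA-seq was analysed in 12 libraries of MAFs, 3 in each of 4 groups taken from the labels. The authors prepared poly(A) libraries, trimmed reads with Trimmomatic 0.36, mapped them with STAR 2.5.2b to GRCm38 and counted uniquely mapped exon reads with featureCounts. Strand use and annotation release are not given in the sources used here. The deposited values were raw counts, whole numbers per gene and library, in 1 table per genotype, and the study tested them with DESeq2. Of the 49315 identifiers, 48970 were matched to symbols and 49056 to coordinates in GENCODE M21. Reads that map to several genes were dropped, which lowers counts of genes with close copies.

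From the counts, those genes that filterByExpr retained (17416) were scaled by TMM and fitted over all 12 libraries with 1 mean per group in edgeR 4.0.16 (R 4.3.3, robust QL F-test). All 9 members passed this filter. The 5 comparisons were tested, with Benjamini-Hochberg adjustment over all genes tested. Passing means an adjusted p under 0.05 and being called also needs a log2 fold change over 1 in size. The SE is the log2 fold change divided by the square root of F, taken as a positive value. Fit code was tested on simulated data. The 95% intervals come from the same fit. RPKM is CPM per kilobase of exon union, used only to compare genes. Other normalizations, filters, tools (DESeq2 1.42.0, limma 3.58.1), a replicate block and leaving out each library were tried.

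Named were the 9 members, in each list up to 3 genes per comparison that passed with the largest change and a mean of at least 1 CPM, the 2 genes most alike to each member, and the targeted gene. Genes of 1 list that are not reported here were left out of its counts and of this rule. The members and lists were chosen with earlier results of these data known. The labels give replicate numbers but no pairing, so libraries were treated as unpaired. Of 18 same-number pairs, 2 had a correlation of deviations over 0.1, and 7 of 12 libraries correlated best with their own number. With 3 libraries per group, such correlations cannot decide whether libraries are paired.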

Additional observations from a re-analysis of the deposited data

Results flagged for a closer look

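The senescence response differed between genotypes, by edgeR's QL test of the interaction (KO log2 fold change minus WT one, adjusted p under 0.05), for 4 of the 9 pro-survival genes: Cflar (0.61, adjusted p 1.68e-05), Birc2 (−0.35, adjusted p 0.008), Bcl2a1b (−2.98, adjusted p 0.0109) and Bcl2l2 (0.29, adjusted p 0.0159). Bcl2a1b, with 4, 4 and 2 counts in the KO senescent libraries, was tested only because of the groups in which it was higher, and its interaction was lost without WT senescent replicate 1 (−2.39, adjusted p 0.0553). That of Bcl2l2 was lost without WT senescent replicate 2 or 3. Among their opponents it differed for the BH3-only genes Bcl2l11 (−0.70) and Bmf (−1.38) and for the effector Bak1 (0.31), which lost significance without 6 of the 12 libraries in turn. It differed for Cycs (0.52), Casp6 (−0.38) and Casp9 (−0.47), for the IAP antagonist Htra2 (0.33), for the inflammasome sensor Naip2 (2.00, at group means of at most 1.43 CPM), for the receptor gene Tnfrsf1a (−0.25) and for Traf3 (0.40), Nfkb2 (0.23) and Nfkb1 (−0.29). Those of Casp6, Casp9, Htra2, Naip2, Tnfrsf1a and Nfkb2 also lost significance without single libraries. Over all genes tested, 20.9% passed this test in either direction.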

How the results depend on the processing

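Of the alternatives for the members' log2 fold changes, 895 left direction and side of the threshold as they were, 16 lost and 13 gained the adjusted p of 0.05, and 29 turned a value near 0. The sign and the side of the adjusted p threshold were the same in all of them for Cflar, Bcl2l2, Bcl2, Bcl2l1 and Xiap with senescence and for the interactions of Cflar and Birc2, although Bcl2l1 exceeded a log2 fold change of 1 in KO cells without scaling factors (1.06). Requiring a log2 fold change over 1 as well left 1 member higher and 0 lower in WT cells, 2 and 1 in KO cells, 0 and 1 for the interaction, and 0 higher between senescent KO and WT cells. With only the groups compared in the fit, 2 fell in WT cells. Bcl2a1b was not tested between senescent KO and WT cells in that setting, and 0 members were lower there. A filter at a mean of 1 CPM removes Bcl2a1b, and DESeq2 gave it no adjusted p in the comparisons that follow. With either, 1 interaction was lower and 0 members were lower between senescent KO and WT cells. The last count was also 0 with no filter and with limma-voom, 2 with upper quartile and 3 without scaling factors. Leaving out 1 library gave 1 to 3 higher and 1 to 2 lower interactions (3 higher without KO control replicate 1, where that of Mcl1 passed). Between control cells 0 to 1 members were higher, and the member gained was Birc2 without WT control replicate 2 (0.23, QL adjusted p 0.0309). Between senescent cells 0 to 1 members were lower.

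Values that turned were those of Mcl1 in WT cells (0.02 with upper quartile and 0.11 without scaling factors, a setting chosen after seeing the data), the Birc3 interaction (0.02 with DESeq2 size factors and with DESeq2, 0.01 with the 1 CPM filter), Bcl2l1 between senescent cells (0.02, 0.02 and 0.00 with the same settings, 0.00 with only the groups compared), Birc3 there without scaling factors (−0.02) and Xiap between control cells without scaling factors (−0.00). Leaving out 1 library spread the interaction over −0.15 to 0.10 for Bcl2 and −0.12 to 0.06 for Birc3. It spread the control difference over −0.04 to 0.13 for Birc3, −0.00 to 0.05 for Cflar, −0.02 to 0.08 for Mcl1 and −0.01 to 0.05 for Xiap, and the senescent difference over −0.03 to 0.04 for Bcl2l1 and −0.07 to 0.07 for Birc3. The cause of these moves was not tested. A ratio of Bcl2, Bcl2l1 and Bcl2l2 to Mcl1 of 0.905, 1.49, 0.859 and 1.42 in the 4 groups followed from longest transcript lengths.

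With the replicate number as a block, Bcl2a1b was no longer lower between senescent cells (−1.68, QL adjusted p 0.0535), which left 0, and the block changed no other member's call. Libraries of the same number correlated by −0.125 to 0.127 in their deviations, and 7 of 12 correlated best with their own number, as a hint from the data only. At 2 to 20 counts per library, depth limits Bcl2a1b.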
